A study of Mus musculus with 32 samples.

Results

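The tibialis and the gastrocnemius of male mice with M743T on both alleles of Gne, all classed as healthy by the submitters, were compared gene by gene. The Gne enzyme makes the precursor of sialic acid in 2 successive steps, and the M743T change in it is known from GNE myopathy, which weakens the muscles of people with variants on both alleles. The comparison took every library of those groups, 4 of tibialis and 3 of gastrocnemius, out of 32 in the series, and all 48586 genes with raw counts. The mice were up to 3 months old, and the labels state 4 animals per state. Strain, the method of the knock-in and the signs by which sick and healthy knock-in mice were told apart were not stated in what was read here. For 2 contrasts the same muscles were taken from wild-type mice (4 and 4 libraries, phenotype healthy) and from sick knock-in mice (3 and 3), also males of the same age limit. Which libraries share a mouse is not labelled. The p-values rest on the spread among libraries, part of which may be technical.

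The gastrocnemius is the superficial calf muscle that extends the ankle. The labels name the other muscle only as tibialis, not whether it is the anterior or the posterior one. Limb muscles keep a record of their position in the embryo, since Hox genes, T-box genes and other patterning factors stay on in muscle fibres and connective tissue of the adult. Muscles also differ in their fibres: each fibre type uses its own myosin heavy chain, from slow (Myh7) through fast oxidative (Myh2 and Myh1) to fast glycolytic (Myh4), and carries the mitochondria, capillaries and calcium pumps that fit it.

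The 7 libraries held 13495503 to 21788495 counts each. Myh4 was the main myosin in all 7, at 35360 to 67630 CPM (a gene's count relative to the scaled library total). Mitochondrial genes took 11.02 to 14.6% of the counts in tibialis and 7.25 to 11.1% in gastrocnemius. Of the other tissues a dissection could bring along, tendon and myotendinous junction genes summed to 365 to 1716 CPM in tibialis and 360 to 1928 in gastrocnemius. Bone and cartilage genes summed to 34.8 to 75.2 and 35.8 to 89.9 CPM in the same order. Schwann cell and nerve genes ranged from 81.7 to 287 CPM in tibialis and from 64.8 to 838 in gastrocnemius. Gne itself stood at 9.31 to 11.1 CPM in tibialis and 10.2 to 10.6 in gastrocnemius, and the tested difference was -0.05 ± 0.12 (log2 ± SE, adjusted p = 0.898). A point mutation does not show in gene counts, so Gne does not check the labels. Among the 24 tested genes of sialic acid metabolism none passed in the unpaired test, and their median difference was -0.08. A gastrocnemius library of the wild type (replicate 3) and one of the sick knock-in (replicate 1) stood apart from their groups in the positional genes described next. The main results that use them are given with and without them.

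Few genes separated the muscles beyond the spread of all 7 libraries, and many more did once libraries of equal replicate number were compared with each other. Of 13633 genes tested, 50 passed an adjusted p of 0.05 (limma-voom, 0.367% of those tested): 31 were higher in tibialis (0.227%) and 19 lower (0.139%). All 50 had CPM ranges that did not overlap between the muscles. Of all genes tested, 1862 had such ranges, 7.07% with tibialis higher and 6.59% with tibialis lower. The 50 were picked by a small p, so their lack of overlap adds no support of its own. Before adjustment 1824 genes had p under 0.05. Replicates with the same number deviated together (processing section), and a fit with the number as a block called 1248 genes (9.15%), 703 higher (5.16%) and 545 lower (4%), with the same 50 among them. That fit uses the 3 numbers found in both muscles, since tibialis replicate 4 has no partner and drops out of the contrast, and it leaves 2 residual degrees of freedom. It is called the paired fit below. A fit with the number as a random effect over all 7 libraries, chosen after seeing the data, called 958 genes, 809 of them among the 1248. Paired calls of named genes that this fit did not make are given with its adjusted p. Leaving out any library lowered the unpaired count, to 9 without tibialis 1, 12 without gastrocnemius 1 or 2, 14 without gastrocnemius 3, 20 without tibialis 3, 31 without tibialis 2 and 34 without tibialis 4. The 7 genes called with each library left out in turn were Tbx1, Adamtsl5, Six2, En1, Hoxd8, Enox2 and Ripor2, and every other call was lost with at least 1 of them. None of the 50 changed direction.

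Several positional transcription factors were among the genes with the largest differences. Tbx1, a T-box factor known from the pharyngeal muscles and from fast fibres, was high in tibialis, and Hoxd8, Hoxd9 and Hoxd10 of the Hox D cluster, En1 and Six2 were high in gastrocnemius. Because Hoxd8, Hoxd9 and Hoxd10 sit next to each other on chromosome 2 and moved together, their promoter windows are shown, from 250 bases before to 50 bases after the start (RefSeq, GRCm38.p6, plus strand, 5′ to 3′), with each CG dinucleotide, the target of DNA methylation, in capitals. Hoxd10 lies at chr2:74691641-74691940, Hoxd9 at chr2:74697513-74697812 and Hoxd8 at chr2:74704365-74704664.
Hoxd10: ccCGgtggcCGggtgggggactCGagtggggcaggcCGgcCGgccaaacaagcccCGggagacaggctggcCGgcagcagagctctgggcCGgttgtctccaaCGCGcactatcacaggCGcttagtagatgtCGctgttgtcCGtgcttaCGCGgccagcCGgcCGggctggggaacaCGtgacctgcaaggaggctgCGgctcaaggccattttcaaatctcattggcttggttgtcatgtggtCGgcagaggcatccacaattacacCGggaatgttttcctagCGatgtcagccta
Hoxd9: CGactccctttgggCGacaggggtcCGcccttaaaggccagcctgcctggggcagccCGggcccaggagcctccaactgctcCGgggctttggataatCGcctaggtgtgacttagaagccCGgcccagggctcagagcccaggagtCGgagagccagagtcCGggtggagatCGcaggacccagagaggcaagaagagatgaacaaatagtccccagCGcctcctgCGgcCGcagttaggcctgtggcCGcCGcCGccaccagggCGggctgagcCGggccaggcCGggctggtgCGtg
Hoxd8: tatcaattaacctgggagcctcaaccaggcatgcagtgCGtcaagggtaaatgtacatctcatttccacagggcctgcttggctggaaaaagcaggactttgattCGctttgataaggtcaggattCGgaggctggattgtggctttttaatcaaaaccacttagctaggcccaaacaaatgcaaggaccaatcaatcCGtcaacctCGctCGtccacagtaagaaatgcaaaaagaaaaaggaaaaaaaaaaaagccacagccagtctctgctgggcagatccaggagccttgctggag
The Hoxd10 window holds 22 CG and the Hoxd9 window 20, counts reached by 23.1 and 26.5% of the 32851 promoter windows. The Hoxd8 window holds 6, reached by 56.4%. Hoxd8 thus held fewer CG than its neighbours, and DNA methylation was not looked at here.

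Tbx1 (chromosome 16, 18580979 to 18590671) was at 92.8, 58.3, 75.2 and 63.1 CPM in the 4 tibialis libraries and at 1.39, 1.26 and 0.335 CPM in the 3 gastrocnemius libraries. Every tibialis library was far above every gastrocnemius library. The difference was 6.37 ± 0.53 (log2 ± SE, adjusted p = 0.00468), and 6.26 in the paired fit. Osr2, an odd-skipped factor of limb connective tissue, was at 4.43, 3.96, 3.49 and 5.50 CPM in tibialis and 1.02, 0.598 and 0.604 CPM in gastrocnemius. Its groups did not overlap either, with a difference of 2.56 ± 0.34 (adjusted p = 0.0294). Pitx3, a homeobox factor active in muscle, was at 2.22 to 5.65 CPM in tibialis and 0.939 to 2.56 in gastrocnemius, groups that overlapped. It missed the threshold in the unpaired test (1.15 ± 0.48, adjusted p = 0.349) and passed in the paired fit (1.36 ± 0.29, adjusted p = 0.0168) but not with the random effect (adjusted p = 0.0648).

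Hoxd10 was at 0, 0.298, 0.143 and 0.370 CPM in tibialis and at 3.43, 4.12 and 7.04 CPM in gastrocnemius. Hoxd9 was at 1.63, 1.70, 1.497 and 3.56 CPM against 13.7, 17.8 and 24. Hoxd8 was at 4.97, 7.10, 4.14 and 8.41 CPM against 42.6, 48.7 and 64.0. In all 3 the lowest gastrocnemius library lay above the highest tibialis library. The differences were -4.72 ± 0.71 for Hoxd10 (adjusted p = 0.0443), -3.13 ± 0.33 for Hoxd9 (adjusted p = 0.0136) and -3.02 ± 0.24 for Hoxd8 (adjusted p = 0.00418). The Hoxd10 call was lost with any library left out, at adjusted p up to 0.103, and under limma-trend. The antisense transcript Hoxd3os1 overlaps Hoxd8 on the opposite strand. It passed in the paired fit (-1.61 ± 0.32, adjusted p = 0.0118) and with the random effect, but not unpaired. Without a stated strand option, its reads and those of Hoxd8 cannot be told apart.

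En1, an engrailed homeobox gene known from the ventral side of the limb bud, was at 0.341, 0.425, 0.570 and 0.647 CPM in tibialis and 7.52, 7.85 and 6.10 CPM in gastrocnemius (-3.78 ± 0.29, adjusted p = 0.00418). Six2, a sine oculis homeobox gene, was at 7.70, 9.70, 7.27 and 8.69 CPM against 42.8, 49.5 and 38.7 (-2.35 ± 0.15, adjusted p = 0.00317). Neither gene's groups overlapped, and the spread within a muscle was small beside the gap between them.

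The other Hox clusters did not separate these muscles. Of the 9 Hox A, 3 Hox B and 8 Hox C cluster genes tested, none passed in either fit, with medians of 0.01, 0.20 and -0.03. Hoxc10, a gene of the hindlimb and the most abundant of these, was at 68.5 to 97.7 CPM in tibialis and 71.7 to 96.8 in gastrocnemius (-0.07 ± 0.16). Hoxa10 was at 19.2 to 24.5 and 21.5 to 25.5 CPM, and Hoxa9 at 6.52 to 11.4 and 7.45 to 9.44. Hoxa4 had groups that did not overlap, at 0.851 to 1.25 CPM in tibialis and 1.26 to 2.92 in gastrocnemius, but did not pass (-0.84 ± 0.35, adjusted p = 0.347). The tested differences of the other Hox genes were 0.49 for Hoxa3, 0.65 for Hoxa5, 0.23 for Hoxa7, -0.19 for Hoxa11, 0.01 for Hoxa11os and -0.20 for Hoxa13. They were 0.50 for Hoxb4, 0.20 for Hoxb6, 0.20 for Hoxb7, -0.01 for Hoxc4, 0.11 for Hoxc5, 0.19 for Hoxc6, -0.06 for Hoxc8, -0.01 for Hoxc9 and -0.40 for Hoxc11. The antisense RNA Hotair of the Hox C cluster gave -0.96 and, like Hoxa4, had groups that did not overlap. Several of these near 0 changed sign with the scaling or with 1 library left out (closing section), so they carry no direction. Annotated Hox A and Hox C genes overlap one another, and reads in the shared parts may be split or lost between them.

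The T-box genes of limb identity and connective tissue likewise did not pass. Tbx15, which controls the number of glycolytic fibres, was at 277 to 351 CPM in tibialis and 199 to 314 in gastrocnemius (0.32 ± 0.16, adjusted p = 0.439). Tbx4, which specifies the hindlimb, gave -0.44 ± 0.37. Tbx2, Tbx3 and Tbx18 gave 0.20 ± 0.30, 0.49 ± 0.25 and -0.34 ± 0.24. Pitx1, the hindlimb identity factor, was at 0.595 to 1.57 CPM in tibialis and 0.073 to 0.665 in gastrocnemius, with groups that overlapped (1.54 ± 0.70, adjusted p = 0.397). Of the 34 patterning factors tested outside the Hox clusters, 2 rose and 2 fell in the unpaired test, and 5 rose and 5 fell in the paired fit. Over all genes 0.227% rose and 0.139% fell unpaired, and 5.16% rose and 4% fell paired. The paired fit added, among others, Pitx3 and Irx3 upward and Meis2, Eya4 and Nr2f2 downward. With the random effect Irx3 (adjusted p = 0.0669) and Nr2f2 (adjusted p = 0.0566) did not pass.

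**Figure D1:**
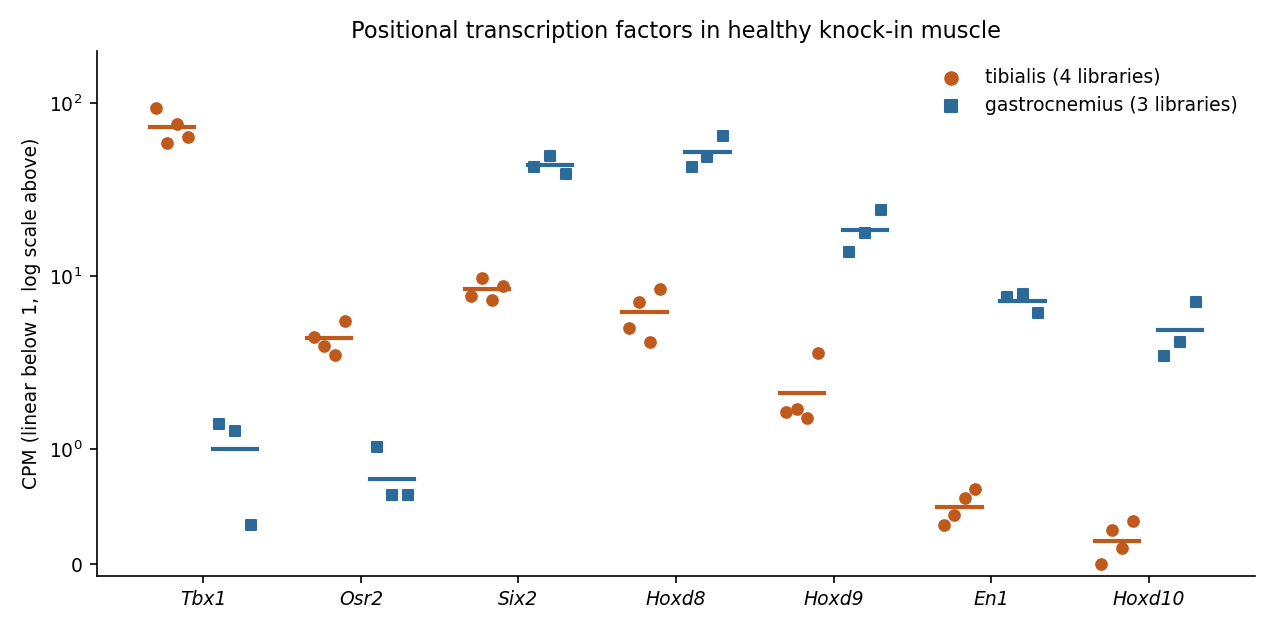
CPM of 7 positional transcription factors in each healthy knock-in library, on an axis that is linear below 1 and logarithmic above; bars are group means. Tibialis libraries (orange circles) lie above gastrocnemius libraries (blue squares) in Tbx1 and Osr2 and below them in Six2, Hoxd8, Hoxd9, En1 and Hoxd10, with no overlap in any of the 7.

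The myosins showed more of the Myh1 isoform in tibialis, within muscles that were both dominated by Myh4. Myh1, the heavy chain of type IIX fibres, was at 8222, 8668, 9894 and 7151 CPM in tibialis and 975, 1219 and 2616 CPM in gastrocnemius. The groups did not overlap, and the difference was 2.55 ± 0.32 (adjusted p = 0.0254). This call held in 1 of the 7 fits that leave out a library, with adjusted p up to 0.103 in the others. As a share of Myh7, Myh2, Myh1 and Myh4 counts per kilobase of exon, Myh1 made up 16.5 ± 1.99% of tibialis (SD, n = 4) and 2.36 ± 0.995% of gastrocnemius (SD, n = 3). Myh4, the heavy chain of type IIB fibres, made up 82.3 ± 1.91% and 96.8 ± 1.10%. Myh4 itself was at 35360 to 53850 CPM against 51730 to 67630, groups that overlapped, and did not pass unpaired (-0.57 ± 0.18, adjusted p = 0.217). It passed in the paired fit (-0.54 ± 0.13, adjusted p = 0.0259) and with the random effect. Myh2, of type IIA fibres, made up 1.21 ± 0.470% and 0.705 ± 0.391% and did not pass in either fit. Myh2, Myh1 and Myh4 are close relatives in a row on chromosome 11, and reads that fit several of them may have been split or left out in the counting.

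Myh7 and other slow-fibre genes varied widely within each muscle, and their calls depended on how the replicate number entered the fit. Myh7, the slow heavy chain, was at 0.204, 15.8, 0.214 and 15.7 CPM in tibialis and 1.46, 479 and 7.98 CPM in gastrocnemius. Replicate 2 was the highest gastrocnemius library and, with replicate 4, one of the high tibialis libraries. The unpaired difference was -2.74 ± 2.83 (adjusted p = 0.75), and the paired one -4.81 ± 0.22 (adjusted p = 2.89e-06). Myl2, the slow regulatory light chain, gave -2.52 ± 2.46 (adjusted p = 0.732) and, paired, -4.14 ± 0.18 (adjusted p = 2.89e-06). Neither passed with the random effect, where Myh7 was at -3.18 ± 2.46 (adjusted p = 0.501) and Myl2 at -2.92 ± 2.03 (adjusted p = 0.453). Sarcolipin (Sln), a small inhibitor of the calcium pump, was lower in all 4 tibialis libraries, at 0.613, 2.04, 0.357 and 0.647 CPM against 3.87, 9.51 and 4.76, and passed in the paired fit (-2.52 ± 0.29, adjusted p = 0.000681) but not unpaired (adjusted p = 0.0859). Of the 18 slow-fibre genes tested, none passed unpaired. In the paired fit 5 fell (Myh7, Myl2, Tnnt1, Tnnc1 and Sln) and 2 rose (Fhl1 and Casq2), where 4% of all genes fell and 5.16% rose. With the random effect only Sln and Fhl1 of these 7 passed. Their median was -0.55, and it ran from -1.17 to 0.71 over the alternatives, so the list as a whole had no stable direction. Casq2, the cardiac and slow form of calsequestrin, rose by 1.10 ± 0.16 in the paired fit (adjusted p = 0.00319) and was at 1.01 ± 0.43 with the random effect (adjusted p = 0.216).

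**Figure D2:**
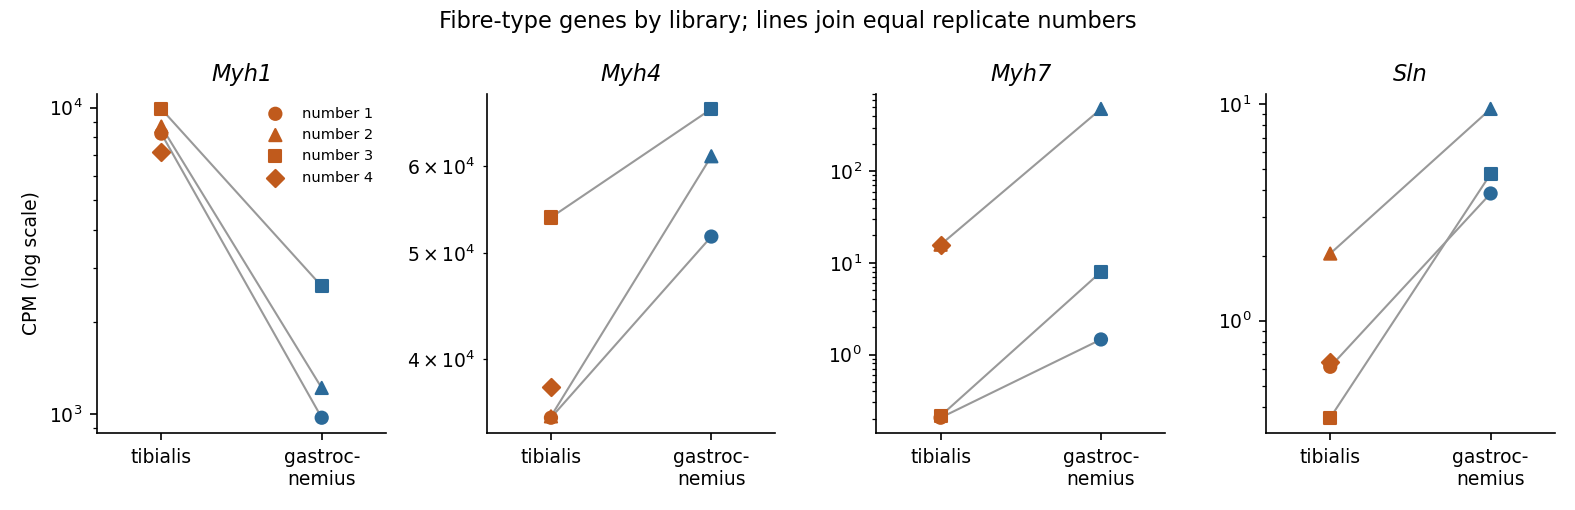
CPM on a log axis of 4 fibre-type genes in each healthy knock-in library; lines join libraries with the same replicate number, and tibialis number 4 has no partner. Myh1 falls from tibialis to gastrocnemius along each line, and Myh4, Myh7 and Sln rise along each line, while the Myh7 level differs widely between numbers.

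Of the 18 fast-fibre genes, Myh1 and Mybpc1 rose in both fits, and Myh4, Tnnc2 and Mybpc2 fell in the paired fit. Mybpc1, the slow-type myosin-binding protein C that fast fibres also carry, was at 2658, 3077, 3523 and 3457 CPM in tibialis and 426, 992 and 800 CPM in gastrocnemius (2.19 ± 0.28, adjusted p = 0.0279). Tnnc2, the fast troponin C, gave -0.81 ± 0.11 in the paired fit (adjusted p = 0.00155). Of 9 embryonic and neonatal genes, Myh8, the perinatal heavy chain, rose in the paired fit (1.37 ± 0.11, adjusted p = 9.3e-05), at 28.9 to 50.7 CPM against 12.6 to 19.7. Cardiac actin (Actc1) fell there (-0.99 ± 0.13, adjusted p = 0.00118), although its levels overlapped, at 78.1 to 1672 and 127 to 3341 CPM. Myh3, the embryonic heavy chain, was at 10.2 to 12.02 and 7.71 to 10.3 CPM and did not pass (0.30 ± 0.16). Of 38 sarcomere and Z-disc genes, Actn2 (1.31 ± 0.17, adjusted p = 0.00254), Obsl1 (0.89 ± 0.12, adjusted p = 0.00131), Cryab (0.86 ± 0.14, adjusted p = 0.00578) and Tcap rose in the paired fit. Titin (Ttn) fell there (-0.64 ± 0.12, adjusted p = 0.0104). Over all genes 5.16% rose and 4% fell in the paired fit, and nothing is read from the number of calls on these lists. With the random effect Mybpc2 (adjusted p = 0.0553), Actc1 (adjusted p = 0.716), Obsl1 (adjusted p = 0.0556) and Tcap (adjusted p = 0.0918) did not pass.

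Genes of mitochondrial energy metabolism were higher in tibialis by a small amount. Of 43 nuclear genes of oxidative phosphorylation, all 43 had a difference above 0, from 0.30 for Cycs to 1.16 for Cox7a1, with a median of 0.55 where the median of all genes tested was 0.01. In 38 of the 43 the lowest tibialis library was above the highest gastrocnemius library (7.07% of all genes tested), and none had the reverse (6.59% of all genes). Only Cox7a1 passed unpaired, and 31 rose in the paired fit, where 5.16% of all genes did. The random-effect fit also called 31, of which 29 were the same. Over all alternatives the list's median stayed between 0.46 and 0.61. Cox7a1, the muscle form of a cytochrome oxidase subunit, was at 341, 340, 252 and 278 CPM in tibialis and 120, 142 and 146 CPM in gastrocnemius (1.16 ± 0.14, adjusted p = 0.0225). Sdhb of complex II rose by 0.77 ± 0.13 in the paired fit (adjusted p = 0.00459), Uqcrc1 of complex III by 0.70 ± 0.12 (adjusted p = 0.00533) and Ndufv1 of complex I by 0.65 ± 0.11 (adjusted p = 0.00607).

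The citric acid cycle moved by a like amount. All 17 genes tested were above 0, with a median of 0.44, and none passed unpaired. In the paired fit 14 rose, where 5.16% of all genes did. The same 14 passed with the random effect. Malate dehydrogenase (Mdh2) was at 1032 to 1245 CPM in tibialis and 580 to 829 in gastrocnemius (paired 0.65 ± 0.12, adjusted p = 0.00769). Dlat of the pyruvate dehydrogenase complex gave 0.55 ± 0.11 (adjusted p = 0.0143), Idh3b 0.58 ± 0.12 (adjusted p = 0.0164) and Fh1 0.48 ± 0.11 (adjusted p = 0.0181) in the same fit. All 12 tested genes of the mitochondrial genome were also above 0, with a median of 0.40. Of these, 5 rose in the paired fit (5.16% of all genes did), 3 of them also with the random effect. mt-Co1, a cytochrome oxidase core subunit, was at 24980 to 32350 CPM in tibialis and 16640 to 23810 in gastrocnemius (paired 0.49 ± 0.12, adjusted p = 0.0264). mt-Cytb (0.50 ± 0.12, adjusted p = 0.0286, and 0.0601 with the random effect) and mt-Nd6 (0.45 ± 0.12, adjusted p = 0.0345) rose there too. Without a stated strand option the reads of mt-Nd6 are uncertain. It overlaps mt-Nd5 on the opposite strand, at a mean of 12400 CPM in tibialis and 10300 in gastrocnemius. mt-Atp6 rose as well (0.82 ± 0.15, adjusted p = 0.00769), at only 8.91 to 20.2 CPM, and it overlaps mt-Atp8, which was counted at a mean of 4170 CPM in tibialis, so its reads are uncertain.

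Of 35 tested genes of fatty acid uptake and oxidation, 19 rose in the paired fit, against 5.16% of all genes, and 16 of these also passed with the random effect. Acadl, the long-chain acyl-CoA dehydrogenase, was at 288, 289, 253 and 277 CPM in tibialis and 101, 130 and 135 CPM in gastrocnemius, without overlap (1.21 ± 0.13, adjusted p = 0.0136). Acadvl, its very-long-chain relative, was at 161, 176, 159 and 162 CPM against 81.2, 90.9 and 109 (0.84 ± 0.12, adjusted p = 0.033). Of the 35 genes, 34 were above 0 with a median of 0.56, Acsl6 was below 0, and Acadl and Acadvl passed unpaired. Slc27a1, a fatty acid transporter, gave 0.80 ± 0.12 (adjusted p = 0.00238) and Echs1, the enoyl-CoA hydratase, 0.68 ± 0.10 (adjusted p = 0.00268) when paired. No gene of these 4 metabolic lists fell in either fit.

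Glycolysis and glycogen genes did not move as a group. Of 36 tested, with a median of 0.11, the glycogen branching enzyme Gbe1 rose unpaired, at 63.7 to 90.8 CPM against 30.9 to 44.0 (1.10 ± 0.16, adjusted p = 0.0396). In the paired fit 4 rose and 7 fell, where 5.16% of all genes rose and 4% fell. Glycogen synthase Gys1 rose (0.72 ± 0.11, adjusted p = 0.0026), while the phosphorylase kinase subunit Phkb (-0.60 ± 0.11, adjusted p = 0.00809) and Pfkfb3, which makes the activator of phosphofructokinase (-1.06 ± 0.14, adjusted p = 0.00128), fell. Pfkfb3 did not pass with the random effect (-1.33 ± 0.49, adjusted p = 0.165), where 3 genes of the list rose and 3 fell. The 30 cytosolic ribosomal protein genes, a list with no tie to fibre type, had a median of -0.01 and no call in either fit.

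**Figure D3:**
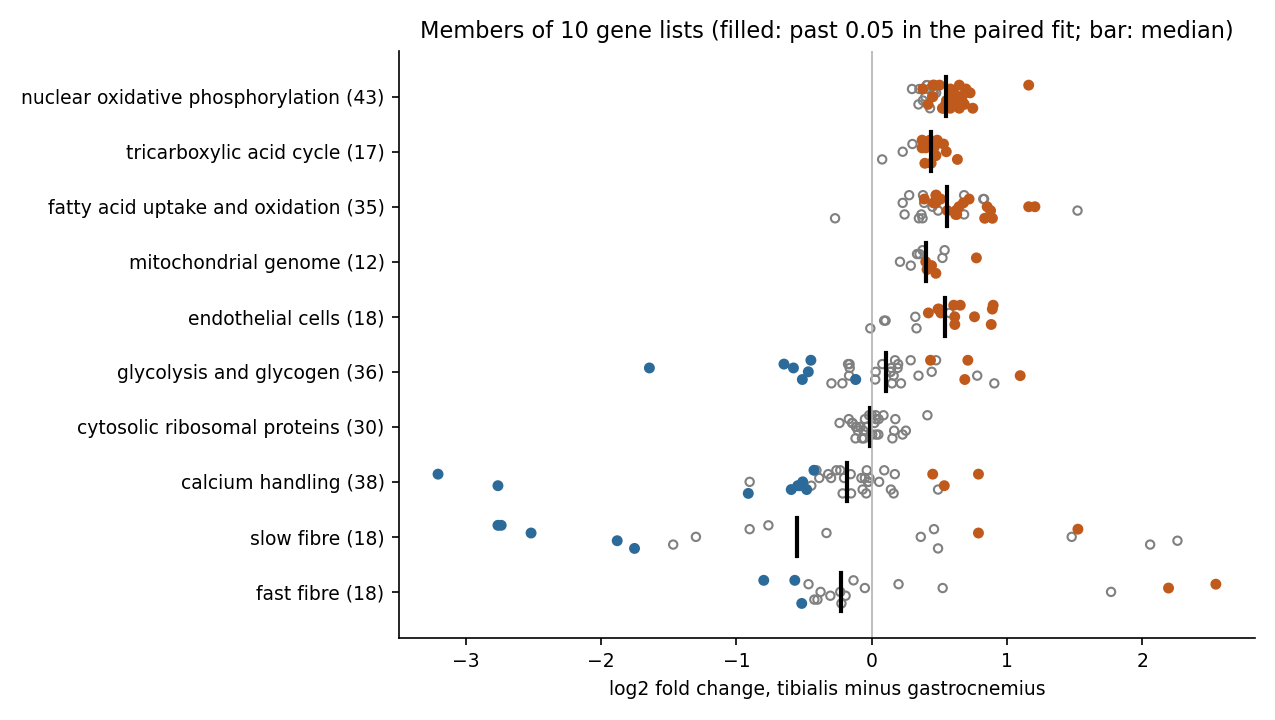
Log2 fold change (tibialis minus gastrocnemius, unpaired fit) of each tested member of 10 gene lists, with the number tested in brackets; filled points passed 0.05 in the paired fit (orange above 0, blue below 0), open points did not, and bars are medians. The 3 nuclear metabolic lists, the mitochondrial genome and endothelial genes lie to the right of 0 except Acsl6 (-0.27) and Emcn (-0.01), with medians of 0.40 to 0.56, and the ribosomal protein genes centre on 0.

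Among the called genes were pumps and channels of the fibre membrane, which formed no list of their own. Atp1b1, a beta subunit of the sodium-potassium pump, was at 187, 183, 234 and 168 CPM in tibialis and 40.1, 66.7 and 59.5 CPM in gastrocnemius (1.83 ± 0.19, adjusted p = 0.0136). Kcnf1, a modifier subunit of potassium channels, was lower in tibialis, at 4.43, 7.19, 5.35 and 6.29 CPM against 16.5, 17.7 and 24 (-1.69 ± 0.20, adjusted p = 0.022). Among the remaining called genes, picked out here after their values were seen, the fast-firing potassium channels Kcnc1 (1.28 ± 0.15, adjusted p = 0.0223) and Kcnc4 (1.28 ± 0.19, adjusted p = 0.0396) rose and the calcium-activated potassium channel Kcnma1 fell (-0.99 ± 0.14, adjusted p = 0.0319). Of 38 calcium handling genes tested, with a median of -0.18, none passed unpaired. In the paired fit 3 of them rose and 9 fell, where 5.16% of all genes rose and 4% fell. Ryr3, a ryanodine receptor of immature fibres, was at 0.409, 0.808, 0.428 and 0.462 CPM in tibialis and 10, 5.32 and 2.62 CPM in gastrocnemius, without overlap (unpaired -3.21 ± 0.64, adjusted p = 0.0825, and paired -3.25 ± 0.41, adjusted p = 0.00128). Myoregulin (Mrln), another small pump inhibitor, fell in the paired fit with Sln (-0.76 ± 0.14, adjusted p = 0.0101).

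Myostatin, the secreted brake on muscle growth, was lower in tibialis. Mstn was at 46.6, 39.0, 59.0 and 54.8 CPM in tibialis and 134, 114 and 198 CPM in gastrocnemius (-1.54 ± 0.21, adjusted p = 0.0294), and its call was lost with any 1 library left out, at adjusted p up to 0.112. Of 36 tested genes of the insulin-like growth factor and myostatin axis, Mstn alone passed unpaired, and 4 rose and 5 fell in the paired fit. Over all genes 5.16% rose and 4% fell in that fit. Those that fell with it were the activin receptor Acvr2a (-0.82 ± 0.10, adjusted p = 0.000787), the growth factor Igf1 (-0.85 ± 0.11, adjusted p = 0.00115), Gdf11, the closest relative of myostatin (-0.90 ± 0.13, adjusted p = 0.00262), and Tgfbr1. Those that rose were Akt1, Smad7, Id1 and Id3. With the random effect Smad7 (adjusted p = 0.0553) and Id1 (adjusted p = 0.183) did not pass. On the atrophy list Mstn was again the only call in both fits, and no gene of the glucocorticoid list passed in either. Among fibre type regulators, Rcan2 rose (0.77 ± 0.14, adjusted p = 0.00914) and Prox1 (-1.30 ± 0.28, adjusted p = 0.0167) and Mafa (-0.59 ± 0.13, adjusted p = 0.0183) fell in the paired fit, where 5 of 36 rose and 4 fell. Neither Prox1 (adjusted p = 0.136) nor Mafa (adjusted p = 0.228) passed with the random effect.

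Of the other genes with the largest differences, several have no settled role in muscle. The long noncoding RNA 2310008N11Rik had 462 counts over the tibialis libraries and 2 over the gastrocnemius libraries, a ratio of 137 (exact 95% counting interval 37.6 to 1130, which covers counting error only). Cyp4f39, a cytochrome P450 of fatty acid hydroxylation, was at 12.7, 7.06, 14.5 and 8.41 CPM in tibialis and 0.511, 0.133 and 0.335 CPM in gastrocnemius (4.95 ± 0.73, adjusted p = 0.043). Dusp26, a phosphatase, was at 22.2 to 31.7 CPM against 3.58 to 8.25 (2.42 ± 0.29, adjusted p = 0.022). Tspan12, a tetraspanin of Norrin signalling in vessels, was at 31.2 to 49.4 against 9.86 to 11.97 CPM (1.88 ± 0.24, adjusted p = 0.0254). Adamtsl5, an extracellular matrix protein, was at 54.0 to 64.6 against 19.1 to 24.1 CPM (1.47 ± 0.12, adjusted p = 0.00418). Raver2 rose by 2.105 ± 0.30 (adjusted p = 0.033), but it overlaps the far more abundant Jak1 on the other strand, at a mean of 198 CPM in tibialis. The noncoding Gm47708 rose by 3.03 ± 0.46 (adjusted p = 0.0466).

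In the other direction Enox2, a cell-surface oxidase, was at 7.07 to 10.8 CPM in tibialis and 32.9 to 47.4 in gastrocnemius (-2.15 ± 0.19, adjusted p = 0.00468). Cadm1, a cell adhesion molecule, was at 2.64 to 4.28 against 8.11 to 12.6 CPM (-1.65 ± 0.22, adjusted p = 0.0294). The noncoding Gm19299 gave -2.38 ± 0.30 (adjusted p = 0.0228). Gm47968 and Gm48786 gave -1.96 ± 0.29 and -1.87 ± 0.28 (adjusted p = 0.0418 for each), and as processed pseudogenes they may hold reads of their parent genes. Alkaline phosphatase Alpl was the only unpaired call among 8 bone and cartilage genes (1.38 ± 0.19, adjusted p = 0.0294). Dmp1, Col2a1 and Col11a2 of that list fell in the paired fit, where 4% of all genes did. Col2a1 (adjusted p = 0.542) and Col11a2 (adjusted p = 0.231) did not pass with the random effect. Of the rest of the 50, the mitochondrial enzymes Got2 and Ckmt2 (paired 0.82 ± 0.10 and 1.19 ± 0.13), also picked out after their values were seen, stood beside the metabolic genes above. Crot, a carnitine octanoyltransferase of fatty acid metabolism that is not on those lists, went the other way. It was lower in tibialis (-0.67 ± 0.10, adjusted p = 0.0466, and paired -0.67 ± 0.11, adjusted p = 0.00431).

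Among the cell type lists, endothelial genes had the most paired calls. Of 18 tested, 17 were above 0 with a median of 0.54, and none passed unpaired. In the paired fit 12 rose, where 5.16% of all genes did, and 9 of them also passed with the random effect. Tie1, an endothelial receptor, was at 70.3, 64.8, 49.6 and 47.9 CPM in tibialis and 30.3, 37.3 and 27.2 CPM in gastrocnemius (paired 0.98 ± 0.11, adjusted p = 0.000654). The water channel Aqp1 (0.81 ± 0.11, adjusted p = 0.00158), the VEGF receptor Kdr (0.76 ± 0.10, adjusted p = 0.00139) and Robo4 (0.69 ± 0.12, adjusted p = 0.00515) rose in the same fit, and Kdr did not pass with the random effect (adjusted p = 0.226). The summed level of the list was 1327 to 1773 CPM in tibialis and 924 to 1060 in gastrocnemius. In bulk muscle, more cells of a type and more RNA per cell cannot be told apart. Pericyte and smooth muscle genes gave 3 paired calls of 14, all upward, Rgs5 (0.55 ± 0.11, adjusted p = 0.0102) and Kcnj8 (0.62 ± 0.15, adjusted p = 0.0261) among them. Kcnj8 did not pass with the random effect (adjusted p = 0.470).

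The other cell type lists gave few paired calls and, apart from Alpl, none unpaired. Of all genes tested, 5.16% rose and 4% fell in the paired fit, and nothing is read from the few calls per list. None of 13 satellite cell, 20 macrophage, 13 adipocyte or 6 erythrocyte genes passed in either fit. All 20 macrophage genes were above 0 in the unpaired fit, with a median of 0.52 that became 0.15 in the paired fit. The 23 glucocorticoid response genes likewise had a median of 0.56 unpaired and 0.06 paired. Tibialis 4, which has no weight in the paired fit, stood apart on both lists. Its macrophage genes summed to 520 CPM, against 162.5 to 267 in the other tibialis libraries and 155 to 240 in gastrocnemius. Its glucocorticoid genes summed to 4255 CPM, against 1354 to 1646 and 1317 to 1730. The part of this library in the unpaired medians was not tested. Of 17 genes of fibro-adipogenic progenitors, Ly6a rose (0.48 ± 0.11, adjusted p = 0.0197) and Dcn fell (-0.57 ± 0.11, adjusted p = 0.0131) when paired. Of 16 tendon genes, Angptl7 (-0.87 ± 0.11, adjusted p = 0.000887), Kera (-0.90 ± 0.12, adjusted p = 0.00154) and Fmod (-0.68 ± 0.17, adjusted p = 0.0486) fell, and of 15 Schwann cell genes 2 fell, Mal among them (-1.65 ± 0.19, adjusted p = 0.000587). The levels of both lists vary several-fold within each muscle, as given above, and the part of nerve and tendon left on the muscle in these calls was not tested. Of 35 matrix genes, Col3a1 (0.57 ± 0.10, adjusted p = 0.0079), Col4a1 and Col4a2 rose and Ogn fell (-0.63 ± 0.13, adjusted p = 0.013). Col4a1 and Col4a2 overlap on opposite strands, so reads in their shared part are uncertain. Mmp9 of the neutrophil list (-1.47 ± 0.33, adjusted p = 0.0195) and Trp63 of the skin list (-0.93 ± 0.16, adjusted p = 0.00622) fell in the paired fit. Of the genes named here with a paired call, only Alpl and Ogn passed with the random effect, where the adjusted p of the others ran from 0.0902 for Mmp9 to 0.527 for Col3a1.

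Several smaller lists had 1 to 3 paired calls each and none unpaired. Dystrobrevin beta (Dtnb, -1.25 ± 0.20, adjusted p = 0.00426) and dystrophin (Dmd, -0.45 ± 0.10, adjusted p = 0.0204) fell and neuronal nitric oxide synthase (Nos1, 0.92 ± 0.15, adjusted p = 0.00577) rose among 18 genes of the dystrophin complex. At the neuromuscular junction, Dok7, the activator of MuSK (0.49 ± 0.13, adjusted p = 0.0374), and Ufsp1 (0.58 ± 0.13, adjusted p = 0.0234) rose and Sema3a fell (-0.97 ± 0.22, adjusted p = 0.0236), of 20 tested. Of 20 clock genes 1 rose and 2 fell, the latter being Rora (-0.83 ± 0.12, adjusted p = 0.00176) and Hlf (-0.52 ± 0.14, adjusted p = 0.0463). Of 23 heat shock genes the small chaperone Hspb6 rose (1.16 ± 0.14, adjusted p = 0.00115) with Cryab and Hspb8 fell (-0.44 ± 0.10, adjusted p = 0.0222). Of 25 immediate early genes Btg2 alone passed (0.60 ± 0.16, adjusted p = 0.046). The antigen presentation genes H2-Ab1 (0.58 ± 0.13, adjusted p = 0.0202), H2-Aa (0.45 ± 0.12, adjusted p = 0.0379) and Cd74 rose, of 32 on the interferon and antigen presentation list. On the sialic acid list the sialyltransferase St3gal1 fell in the paired fit (-0.64 ± 0.12, adjusted p = 0.00861), at 28.5 to 62.0 CPM against 37.8 to 62.5. Since 9.15% of all genes passed in that fit, nothing is read from 1 to 3 calls in lists of this size. With the random effect Ufsp1, Sema3a, Hlf, Btg2, H2-Ab1, H2-Aa, Cd74 and St3gal1 did not pass, at adjusted p from 0.0911 for Ufsp1 to 0.248 for Hlf.

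The same contrast was made in wild-type mice, which share no library with the knock-in mice, to see whether the muscle differences depend on the genotype. All 50 genes called in the healthy knock-in had the same direction in wild type, where 65.5% of the 13532 genes tested in both did. Across those genes the log2 fold changes correlated at r = 0.533, which describes these libraries. Without wild-type gastrocnemius 3 all 50 again had the same direction, the share over all genes was 65.8% and r was 0.561. In wild type 203 of 14314 genes passed (1.42%), 10 of them among the 50, which is 20% of the healthy knock-in calls and 4.93% of the wild-type calls. The wild-type count was 93, 99 and 128 without tibialis 1, 2 and 3, 96 without gastrocnemius 2 and 170 without gastrocnemius 3. Tbx1 was at 66.8 to 88.7 CPM in wild-type tibialis and 1.74 to 11.5 in wild-type gastrocnemius (4.15, adjusted p = 0.00136), and En1 also passed (-3.04, adjusted p = 0.000546). Hoxd8 did not pass (-2.18, adjusted p = 0.144). Its wild-type gastrocnemius libraries were at 34.6, 38.1, 6.36 and 45.1 CPM, the third of them within reach of the tibialis libraries at 4.35 to 6.89. The same library was low in Hoxd9, at 2.81 CPM against 13.8 to 15.7 in the other 3, in Six2, at 8.32 against 24.04 to 47.8, and in Enox2, at 8.73 against 25.6 to 39.6, and it held the highest Tbx1 level of its group. En1 was less apart there, at 4.89 CPM against 6.35 to 7.91. Without it, Hoxd8 (-2.85, adjusted p = 0.00042), Hoxd9 (-3.37, adjusted p = 0.000276), Hoxd10 (-4.74, adjusted p = 0.00178) and Six2 (-2.54, adjusted p = 0.00179) passed in wild type as well, and 22 of the 50 genes passed (8 to 27 over all alternatives for the wild-type contrast).

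The energy genes lay at similar values in wild type, with medians of 0.58 for nuclear oxidative phosphorylation, 0.53 for the citric acid cycle, 0.43 for fatty acids and 0.43 for endothelial genes. Their calls there were 0, 1, 0 and 0 in the unpaired test. Without wild-type gastrocnemius 3 the medians were 0.60, 0.55, 0.55 and 0.57 in the same order, with no call. Other lists lay apart. Unpaired medians in healthy knock-in and wild type were 0.52 and -0.32 for macrophage genes, 0.23 and -0.39 for matrix genes and 0.175 and -0.53 for progenitor genes. Schwann cell genes were at -0.32 and -1.94, with 11 called lower in wild type. No member of these lists passed the test of the difference between genotypes. Mybpc1, at 2.19 in healthy knock-in, was at 0.61 in wild type, and Osr2, at 2.56, was at 0.82. The tests of these differences between genotypes gave 1.59 ± 0.54 for Mybpc1 and 1.76 ± 0.61 for Osr2, with an adjusted p of 1 for each. Mybpc1 was at 4706 CPM in wild-type gastrocnemius 3 and at 995 to 2502 in the other 3. Without that library the wild-type values were 0.98 for Mybpc1 and 1.05 for Osr2, and the differences from the knock-in 1.21 ± 0.43 and 1.53 ± 0.60, again with an adjusted p of 1 for each. The 50 genes were selected by their test in the healthy knock-in, so nothing is read from larger values there.

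**Figure D4:**
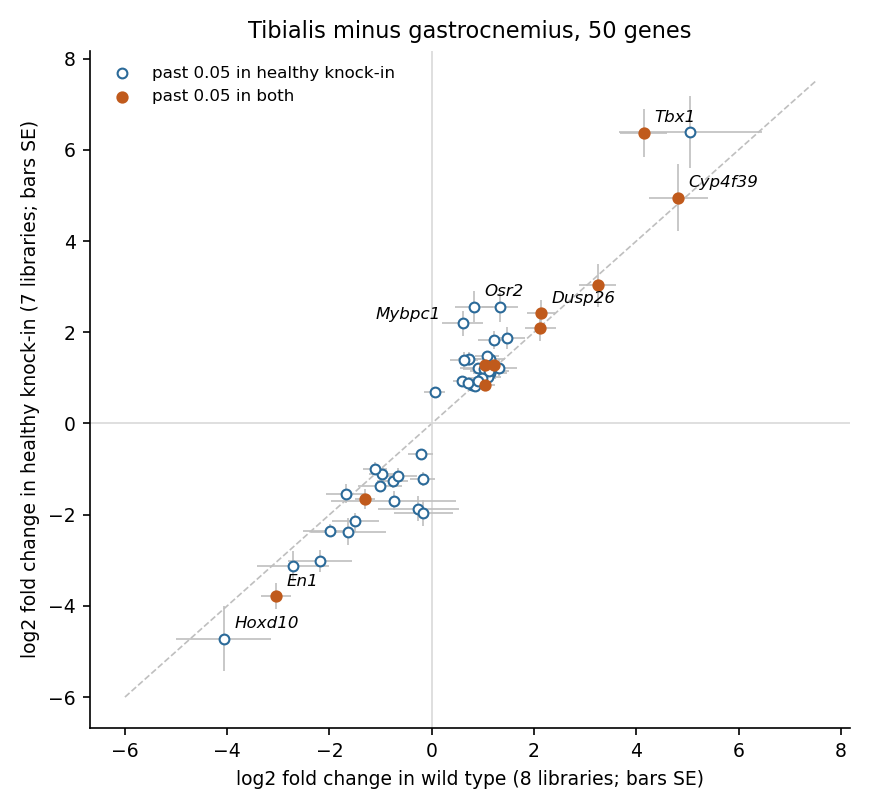
Log2 fold change (tibialis minus gastrocnemius) of the 50 genes called in healthy knock-in mice, in wild type on the horizontal and in healthy knock-in on the vertical axis; bars are SE and the dashed line marks equal values. All 50 points share their sign, and the 10 filled points passed 0.05 in both.

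Tested directly, the muscle difference of 19 genes differed between healthy knock-in and wild type (of 14483 tested, 0.131%, and 383 with unadjusted p under 0.05), and none of the 50 called genes was among them. All 19 were lower in the knock-in contrast, none passed the filter on low counts in the healthy knock-in libraries alone, and 8 of them are on the list of 25 kidney tubule genes (Pvalb, also a fast-fibre gene, set aside). The 6 with the smallest p were Slc17a3, Umod, Slc5a12, Slc12a1, Cdh16 and Prss8, with differences of log2 fold changes of -8.17, -8.23, -8.27, -7.72, -6.74 and -6.28, fitted values that depend on the count added before the logarithm. Umod, the urinary protein uromodulin of the kidney's thick ascending limb, had 0 counts in the 4 healthy knock-in tibialis libraries, 2 in the 3 gastrocnemius libraries, and 238 and 1 in wild-type tibialis and gastrocnemius. Per library it was at 3.28, 4.15, 3.02 and 2.81 CPM in wild-type tibialis. Slc12a1, the salt transporter of the same segment, had 0 and 3 counts in the knock-in and 174 and 3 in wild type. In all 19 genes every wild-type tibialis library was above all 7 healthy knock-in libraries, a description only, since the genes were selected by this difference. Among the knock-in libraries, gastrocnemius 2 was at 0.532 CPM in Cdh16, 0.399 in Slc17a3 and 1.795 in Keg1, another of the 19, and the other 6 libraries were at or below 0.136 CPM in these 3 genes. The summed level of the 25 kidney genes was 103 to 143 CPM in wild-type tibialis, 34.6 to 56.6 in wild-type gastrocnemius, 18.1 to 66.2 in healthy knock-in tibialis and 12.7 to 131 in healthy knock-in gastrocnemius, where Cyp2e1, also a fat and liver gene, made up 118 CPM of the highest value. Kidney RNA in a muscle library cannot be told apart from expression in muscle here. The count of 19 became 8 without wild-type gastrocnemius 1, 9 without wild-type gastrocnemius 3, 10 without wild-type tibialis 1 or healthy knock-in tibialis 2 and 11 without healthy knock-in tibialis 3. It became 12 without wild-type tibialis 3 or 4, healthy knock-in tibialis 4 or healthy knock-in gastrocnemius 2.

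**Figure D5:**
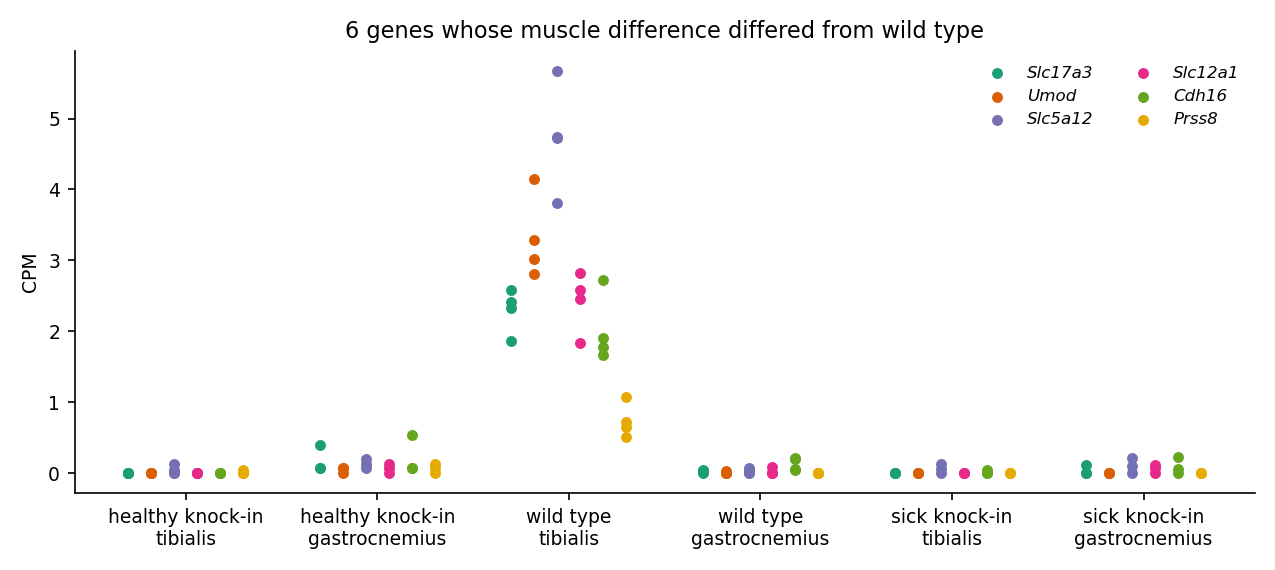
CPM per library of the 6 genes with the smallest p in the test of healthy knock-in against wild type, in the 6 groups of tibialis and gastrocnemius libraries. The 4 wild-type tibialis libraries lie between 0.514 and 5.67 CPM, and the other libraries at or below 0.532 CPM, the value of healthy knock-in gastrocnemius 2 in Cdh16.

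Against the sick knock-in, no muscle difference passed (0 of 14252 genes, 0%, limma-voom), with 859 genes at an unadjusted p under 0.05 and a smallest adjusted p of 0.432. The replicate block gave 139 genes and the random effect 93, in a design where the sick muscles share 2 replicate numbers. The count stayed 0 in the alternatives that keep the libraries unpaired, with the sick gastrocnemius library that stood apart left out as well. That library (replicate 1) was at 6.45 CPM in Hoxd8 and 13.5 in Tbx1, where the other sick gastrocnemius libraries were at 23.9 and 38.6 and at 2.43 and 5.17. Tbx1 was at 109 to 162 CPM in sick tibialis, so the direction of its muscle difference was the same as in healthy mice. This contrast and the one with wild type share the healthy knock-in libraries.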

How the data were processed

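RNA was sequenced from tibialis and gastrocnemius of healthy knock-in, wild-type and sick knock-in mice. Per the submitters' processing notes, cutadapt 1.18, TopHat2 2.1.1, HTSeq 0.6.0, DESeq2 1.22.1 and GRCm38 were used, and no strand option for the counting was found in them. The authors deposited 1 table with a raw count column and a scaled column per library, per the file headers. The 32 scaled columns were not used. The raw columns list 54838 genes, of which 6252 carry a question mark in place of a count, so 48586 had raw counts. Because of those marks limma-voom was used and count models were not run.

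Libraries of the compared groups were fitted with limma 3.58.1 (R 4.3.3), TMM scaling (trims 0.3 and 0.05), a prior count of 0.5, robust moderation and Benjamini-Hochberg adjustment at 0.05. Genes needed 10 counts in a median-sized library in as many libraries as the smaller group and 15 counts in all. CPM values were computed with 1 TMM scaling over the libraries of both muscles in all 3 states. The scripts were tested on simulated data. Exact intervals of count ratios are at 95% and cover counting error only, and a group at 0 was set to 3 counts.

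Replicate numbers were treated as pairs in the healthy knock-in because deviations from the group means correlated at 0.323, 0.641 and 0.540 for the 3 shared numbers, and each gastrocnemius library correlated best with its own number. The pairing comes from these correlations and the shared numbers, since the labels name no animal. The paired fit has 2 residual degrees of freedom against 5, and tibialis 4 has no weight in it.

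The genes and the 42 gene lists were chosen with earlier results of these data known. Named were Gne, up to 12 called genes each way with the highest and lowest fold change (groups without overlap, at least 1 CPM in the higher group), up to 4 called members per list, the myosins Myh7, Myh2, Myh1, Myh4 and Myh3, each tested Hox, Tbx and Pitx gene, and 6 genes of each contrast between states. List members named for the paired fit were chosen after their values were seen. Some genes that this rule names are not reported here. Promoter windows are RefSeq sequences on GRCm38.p6, and gene positions are GENCODE vM21. Alternatives were median-of-ratios and total-count scaling, no low-count filter, limma-trend, sample quality weights, other sets of libraries, the replicate block and each library left out. The block as a random effect and all alternatives for the wild-type contrast were chosen after seeing the data.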

Additional observations from a re-analysis of the deposited data

Results flagged for a closer look

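The muscle difference of 19 genes differed between healthy knock-in and wild type by the test of that difference (limma-voom, adjusted p under 0.05). For the 6 with the smallest p, the difference of log2 fold changes was -8.17 for Slc17a3, -8.23 for Umod, -8.27 for Slc5a12, -7.72 for Slc12a1, -6.74 for Cdh16 and -6.28 for Prss8, with adjusted p of 0.000286, 0.000286, 0.000289, 0.00144, 0.00685 and 0.00866. All 6 are known from kidney epithelium, and the part of kidney RNA in them was not tested.

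In 6 of 62 named genes tested, 1 of the 4 healthy knock-in tibialis libraries lay far from the other 3 by Dixon's criterion at 95%, which chance gives for about 1 in 20 genes. Replicate 4 was high in Hoxd9 (3.56 CPM) and low in Hoxa7 (2.54 CPM) and Hoxb4 (0.370 CPM). Replicate 3 was high in Myh4 (53850 CPM) and Hoxa13 (5.70 CPM), and replicate 2 was high in Acadvl (175.8 CPM). Replicate 4 of Hoxd9 still lay below all 3 gastrocnemius libraries.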

How the results depend on the processing

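The count of 50 genes in the healthy knock-in became 253 with no filter on low counts, 20 with all 32 libraries in the fit, 1248 with the replicate block, 958 with the block as a random effect, and 9 to 34 with 1 library left out. It was 51 with median-of-ratios scaling, 64 with total counts (44 higher and 20 lower), 74 with limma-trend, 71 with sample quality weights and 54 with the 11 healthy knock-in libraries (23 higher and 31 lower). Of the 50, 11 passed under every alternative that keeps all 7 libraries, and none changed sign. The count of 203 in wild type became 348 with no filter, 845 with sample quality weights and 93 to 228 with 1 library left out, and was 219 with the block. Wild-type libraries of equal number correlated at 0.576 for number 2 and 0.565 for number 4. The values were -0.00971 for number 1 and 0.0841 for number 3, and tibialis 3 correlated at 0.49 with gastrocnemius 1. The wild-type numbers were therefore not taken as pairs throughout. The 19 genes that differed between healthy knock-in and wild type became 68 with no filter, 12 with limma-trend, 37 with all 32 libraries, 18 with the replicate block, 33 with the random effect and 8 to 24 with 1 library left out. Against the sick knock-in the count of 0 became 139 with the replicate block and 93 with the random effect, where the sick muscles share 2 numbers only. The random effect and the alternatives for wild type were chosen after seeing the data. The causes of these moves were not tested.

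Genes that did not pass and lay near 0 changed sign. With the replicate block Hoxa10 was at 0.000571, Hoxa11 at 0.0782, Hoxc4 at 0.101, Hoxc8 at 0.172 and Hoxc9 at 0.00636. With the random effect Hoxc4 was at 0.0468 and Hoxc8 at 0.0548. With total counts Hoxc4 was at 0.0144 and Hoxc9 at 0.0161, with no filter 0.0321 and 0.0399, with limma-trend 0.0153 and 0.0295, and with quality weights 0.00795 and 0.0177, where Hoxc8 was at 0.0142. With all 32 libraries Hoxa11os was at -0.00171, and with the 11 healthy knock-in libraries Hoxc9 was at 0.00171. With 1 library left out, Hoxa9 ran from -0.0206 to 0.317, Hoxa11 from -0.374 to 0.0267, Hoxa11os from -0.332 to 0.269, Hoxb6 from -0.0346 to 0.477, Hoxb7 from -0.121 to 0.395, Hoxc4 from -0.158 to 0.0922, Hoxc5 from -0.0199 to 0.446, Hoxc8 from -0.183 to 0.124, Hoxc9 from -0.111 to 0.187, Hoxc10 from -0.197 to 0.00386 and Myh2 from -0.0943 to 0.966. Genes at a few counts per library, such as Hoxd10, are limited by depth.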
